A study of Mus musculus with 14 samples.

Results

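Lipoprotein lipase (Lpl) and a small set of adipocyte lipid genes were followed in mouse fibroblasts that lack Ptdsr. Ptdsr, now called Jmjd6, was named as a phosphatidylserine receptor, and its product is a JmjC-domain protein of the nucleus. The members were all probes whose gene symbol is Lpl, Pparg, Cebpa, Cebpb, Cebpd, Fabp4, Fabp5, Lipe, Scd1 or Scd2 and which had a value on at least 10 of the 14 arrays. This gave 9 probes of 6 genes among the 20355 probes of the deposited table. All probes together carry 9932 distinct labels, which include the placeholders for no symbol and for several symbols. Lpl was included because 1 of its probes had already been called lower in the knockout, so its values are given as a description. The other symbols were added for their place in adipocyte lipid metabolism.

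Each of the 14 two-colour cDNA arrays carried Ptdsr-/- fibroblast RNA in one dye and wild-type (Ptdsr+/+) fibroblast RNA in the other. Dyes were swapped: Cy5 marked the knockout on 7 arrays and Cy3 on 7. The series design names 2 cultures and no label ties an array to one, so p-values measure only the spread between arrays, which may be technical, and the cultures cannot be told apart from the genotype. The strain, the age of the source animals, the passage and the knockout allele were not given in the sources used here. Values are log2 ratios, the knockout divided by the wild type, after each array's median was set to 0, so -1 is a halving in the knockout. This direction is likely but not stated, as it rests on the sign of a coded extreme in the deposited values. If the Cy3 arrays in fact still needed turning, the mean of Lpl probe 3041 would be 0.036 instead of -1.20.

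Lipoprotein lipase is secreted by fat, muscle and other cells and splits the triglyceride of circulating lipoproteins, which releases fatty acids for uptake. Inside the cell the fatty acid binding proteins Fabp4 and Fabp5 carry these acids, the desaturases Scd1 and Scd2 introduce a double bond into them, and hormone-sensitive lipase (Lipe) releases them from stored fat. In differentiating preadipocytes, which are fibroblast-like, C/EBP factors and the nuclear receptor Pparg switch on Lpl, Fabp4, Lipe and other lipid genes. Macrophages also make lipoprotein lipase, Fabp4 and Fabp5.

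Between 13165 and 19615 probes had a usable ratio on an array. The fewest were on replicate 2, which also had the widest spread of ratios (scaled median absolute deviation of 1.30, next 1.08 on replicate 1). The Jmjd6 probe measured on all arrays had a mean of -0.51 ± 1.14 (SD, n = 14) and was below 0 on 12 of them, which did not pass the test described below (limma, adjusted p = 0.895). The other Jmjd6 probe, measured on 5 arrays, had a mean of 0.27, and where either probe lies relative to the deletion was not given in the sources used here. Among 28 probes of fibroblast markers 0 were called, with a median of -0.02, and 3 had means below 0 and 0 above with an unadjusted p under 0.05, where all probes gave 2.76% and 2.3%. A ratio does not show whether a marker was expressed. As a stand-in for dim spots, values that equal a ratio of whole numbers up to 10 within 0.0011 log2 units were counted, and these made up a median of 15.4% of the values of a probe.

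The 3 Lpl probes were all lower in the knockout on average. Probe 3041 ran from -2.24 to -0.26 with a median of -1.30, and lay below 0 on all 14 arrays. Its mean of -1.20 ± 0.49 (SD, n = 14) is a 2.30-fold reduction. Of all probes tested 0.141% lay below 0 on each array that measured them. Since Lpl was chosen on this contrast, nothing is read from that share. Replicate 4 had the lowest value of this probe, and replicates 7 and 8 had the values nearest to 0, at -0.26 and -0.62.

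Probe 2357 ran from -1.69 to 0.98 with a median of -1.27. It was below 0 on 12 of 13 arrays, with a mean of -0.96 ± 0.74 (SD, n = 13), a 1.95-fold reduction. With number range as a fixed block, where replicate 14 alone stands for its range, the value was -0.39. Its exception was replicate 14, at 0.98, where probes 3041 and 20124 stood at -1.29 and -1.46. Without replicate 14 its mean was -1.12 and it was called (limma, adjusted p = 0.0359, against 0.408 with all arrays). This omission is singled out because that array went the other way, so nothing is read from the call. Leaving out any other single array left the probe uncalled (limma, adjusted p up to 0.894).

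Probe 20124 ran from -1.46 to 0.79 with a median of -0.89. It was also below 0 on 12 of 13 arrays, with a mean of -0.84 ± 0.62 (SD, n = 13), a 1.79-fold reduction. Its exception was replicate 2, at 0.79, where probes 3041 and 2357 stood at -0.73 and -1.14. Replicate 2 was also the array with the fewest usable values and the widest spread. Without replicate 2 its mean was -0.98 and it was called (limma, adjusted p = 0.0333, against 0.408 with all arrays). Here too the omitted array is the one that went the other way, and nothing is read from the call. Leaving out any other single array left the probe uncalled (limma, adjusted p up to 0.935). The values that went the other way were thus on different arrays for these probes, and neither was a ratio of small whole numbers. Over all tested probes 0.676% lay below 0 on every measuring array or on all but 1, a share given as a description only.

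**Figure D1:**
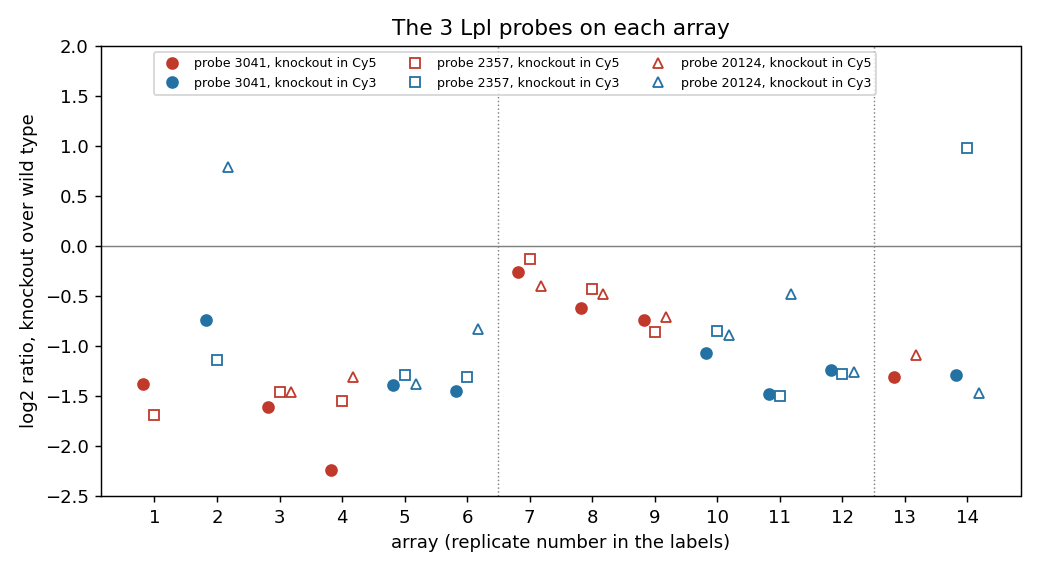
Log2 ratio of knockout over wild type (vertical axis) for each Lpl probe on each array, with the replicate number on the horizontal axis, red for the knockout in Cy5 and blue for the knockout in Cy3. Of 40 values 38 lie below 0, and the exceptions are probe 20124 on replicate 2 and probe 2357 on replicate 14; dotted lines mark the number ranges 1 to 6, 7 to 12 and 13 to 14.

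Of 40 measured Lpl values 38 were below 0, and on 12 of 14 arrays every measured Lpl probe was. The mean of the probes was -1.02 ± 0.46 (SD, n = 14), with arrays from -1.70 on replicate 4 to -0.26 on replicate 7. Within an array the probes differed by a median of 0.24 and by up to 2.44, on replicate 14. The differences between the probes were tested as 3 pairs with the exact two-sided sign-flip permutation test over arrays. Probe 3041 was lower than probe 20124 by 0.34 ± 0.14 (SE, n = 13) and on 10 of 13 arrays (exact permutation p = 0.0217, adjusted p = 0.0652 over the pairs), which did not pass. It passed without replicate 14 or without replicate 7 (exact permutation, adjusted p = 0.0220 and 0.0396). Probe 3041 is the Lpl probe that was called lower on these same arrays, which favours a lower value for it. Its differences from the other Lpl probes are thus a description, and nothing is read from their p-values. Probe 2357 differed from probe 3041 by 0.23 (95% interval -0.17 to 0.63, n = 13) and from probe 20124 by -0.080 (-0.72 to 0.56, n = 12), with adjusted p of 0.375 and 0.768 by exact permutation. Across arrays, probe 3041 correlated with probe 2357 at r = 0.48 (rho = 0.77, n = 13) and with probe 20124 at r = 0.60 (rho = 0.58, n = 13), while the latter pair gave r = -0.048 (rho = 0.15, n = 12). These describe values that share an array.

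The Lpl ratios were alike in both dye orientations. Probe 3041 had a mean of -1.16 ± 0.67 (SD, n = 7) on the Cy5 knockout arrays and of -1.24 ± 0.26 (SD, n = 7) on the Cy3 ones. The dye term, which the choice of Lpl did not use, was 0.036 for this probe, -0.053 for probe 2357 and -0.059 for probe 20124 (limma, adjusted p of 0.972, 0.970 and 0.962). For probes 3041 and 2357 the mean reduction was less in the arrays numbered 7 to 12 than in those numbered 1 to 6. For probe 3041 the means were -0.90 ± 0.45 (SD, n = 6) and -1.47 ± 0.48 (SD, n = 6), with values of -1.30 and -1.29 on replicates 13 and 14. For probe 2357 they were -0.84 ± 0.51 (SD, n = 6) and -1.40 ± 0.20 (SD, n = 6). Probe 20124 was nearly alike in both, at -0.70 ± 0.33 (SD, n = 6) and -0.84 ± 0.94 (SD, n = 5). These number ranges are no labelled groups, the values overlap between them for each Lpl probe, and the difference was not tested.

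The 18503 probes measured on 10 or more arrays, 4 or more in either dye orientation, were fitted with limma (mean ratio and a dye term), and a probe was called at a Benjamini-Hochberg adjusted p below 0.05 over all of them. Of the 9 members, Lpl probe 3041 was called lower (adjusted p = 0.00446), 0 were called higher and 8 were not called. Among all tested probes 0.0324% of probes were called in either direction, 0.0324% lower and 0% higher. With p below 0.05 before adjustment, 3 members were lower, all of them Lpl, and 0 higher, against 5.05% of all probes in either direction, 2.76% lower and 2.3% higher. Since Lpl was chosen on this contrast, nothing is read from these counts. The Lpl call did not hold in the 7 arrays of either dye orientation alone (adjusted p = 0.819 and 0.473) or with robust and trended variances (adjusted p = 0.548), with means of -1.16, -1.24 and -1.20.

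The other 6 member probes, of Fabp4, Fabp5, Lipe, Scd1 and Scd2, had means between -0.16 and 0.25, and none of them was called. The median over all 9 members was -0.003, against 0.007 over all probes tested. The SD over arrays ran from 0.47 to 1.29 among the members, beside a median of 0.91 over all probes tested. The members thus differ widely in their spread.

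Scd1 and one Scd2 probe had the smallest spread of these. Scd1, the desaturase of liver and fat, ran from -0.52 to 0.84 with a median of 0.21 and was above 0 on 9 of 14 arrays. Its mean was 0.19 ± 0.49 (SD, n = 14; limma, adjusted p = 0.895), and the 95% interval of the mean fitted by limma ran from 0.92-fold to 1.41-fold. Such intervals of members come from the fit with its dye term, so the SD printed beside them does not set their width. Scd2, the desaturase of brain and many cultured cells, ran from -0.53 to 1.04 in probe 3889 with a median of 0.07. Its mean was 0.16 ± 0.47 (SD, n = 14; limma, adjusted p = 0.910), with an interval from 0.90-fold to 1.39-fold. Both intervals lie above the mean ratio of each Lpl probe, and they treat the arrays as independent.

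A second Scd2 probe (5552) was measured on 11 arrays, the fewest of any member, and ran from -1.73 to 2.00 with a mean of 0.25 ± 1.21 (SD, n = 11). Its ratios ran against those of probe 3889 across arrays (r = -0.60, rho = -0.46, n = 11), so the Scd2 probes disagree array by array. One further value of this probe was the coded extreme and was set to missing. Scd1 and Scd2 are near neighbours in the RefSeq gene order, with Scd4 between them. They are related in sequence, and cross-hybridisation between them was not measured.

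Fabp4, the fatty acid carrier typical of adipocytes, ran from -2.03 to 1.45 with a median of 0.07. Its mean was -0.003 ± 0.99 (SD, n = 14; limma, adjusted p = 0.998). The interval of the fitted mean, with the dye difference taken out, ran from 0.75-fold to 1.32-fold. The Fabp4 mean joins opposite values. The Cy5 knockout arrays averaged -0.70 ± 0.80 (SD, n = 7), whereas the Cy3 ones averaged 0.69 ± 0.59 (SD, n = 7). All 7 arrays of the latter lay above 0, from 0.063 on replicate 6 to 1.45 on replicate 10, while the Cy5 arrays ran from -2.03 on replicate 13 to 0.077 on replicate 3, so the orientations overlapped narrowly. The dye term of Fabp4 was -0.69 (limma, p = 0.00245 unadjusted, adjusted p = 0.461) and did not pass. It was the 1 member with an unadjusted p below 0.05 for the dye term and 0 passed after adjustment, against 7.66% and 0.0054% of all probes. If the Cy3 arrays still needed turning, the Fabp4 mean would be -0.69 instead.

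Fabp5, the fatty acid carrier of skin and macrophages, ran from -2.25 to 3.58 with a median of 0.05 and a mean of 0.099 ± 1.29 (SD, n = 13; limma, adjusted p = 0.983). Both ends of this range came from arrays with the knockout in Cy3, replicates 2 and 6, and the lower one was a ratio of small whole numbers. Without replicate 6 the mean was -0.19 and without replicate 2 it was 0.29, so its sign rests on single arrays. With the knockout in Cy5 its values kept near 0, at -0.002 ± 0.24 (SD, n = 6). Fabp5 and Fabp4 lie in one gene cluster, with Pmp2 and Fabp9 between them, and their ratios across arrays had r = -0.023 (rho = -0.066, n = 13).

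Lipe ran from -2.57 on replicate 2 to 1.54 on replicate 14 with a median of -0.059, and had a mean of -0.16 ± 0.90 (SD, n = 13; limma, adjusted p = 0.952). The interval of the fitted mean ran from 0.62-fold to 1.30-fold. Of its 13 values 5 were ratios of small whole numbers, the one on replicate 2 among them. The other 8 had a mean of 0.13 ± 0.65 (SD, n = 8), and without replicate 2 alone the mean of all others was 0.044, so the sign of the Lipe mean rests on that array.

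**Figure D2:**
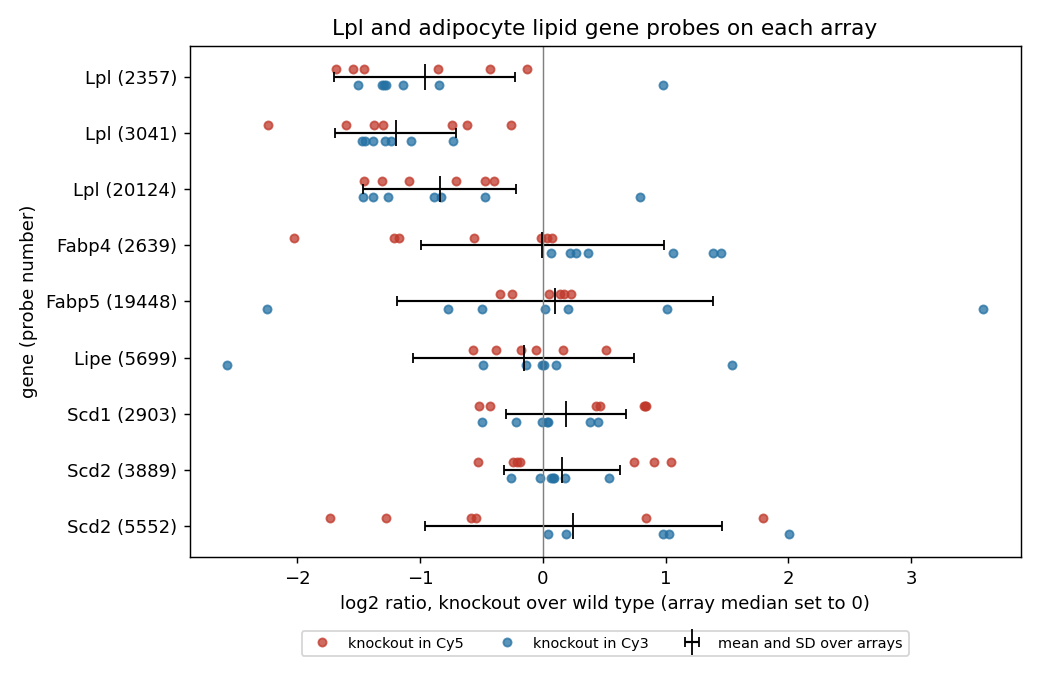
Log2 ratio of knockout over wild type (horizontal axis) for the 9 member probes (vertical axis, gene and probe number), with 1 point per array, red for the knockout in Cy5 and blue for the knockout in Cy3, and a black mark and bar for the mean and SD over arrays. The Lpl probes have means from -1.20 to -0.84, the other probes lie between -0.16 and 0.25, and the Fabp4 points separate by dye orientation almost completely.

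The transcription factors above these genes were poorly covered. No probe of the table is named as Pparg or Cebpb here. Cebpa, which keeps adipocytes differentiated, had values on 8 arrays, from -1.18 to 3.18 with a median of 0.54. Cebpd, an early factor of adipocyte differentiation, had values on 9 arrays, from -0.74 to 1.47 with a median of 0.036, and 7 of these were ratios of small whole numbers. A second Lipe probe had values on 9 arrays, from -0.54 to 2.63. These 3 probes fell short of the minimum of 10 arrays and were not tested, and the member nearest above it was Scd2 probe 5552 with 11. Cebpa also had only 2 arrays with the knockout in Cy3, under the minimum of 4 in either dye orientation.

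The called Lpl probe rose and fell between arrays together with Scd1 and Scd2 probe 3889, and its ratio lay below both. Below, Scd2 means this probe unless the second one is named. Between Lpl probe 3041 and Scd1, r was 0.85 (rho = 0.85, n = 14), and 0.82 without the 2 arrays farthest from the Lpl median. With Scd2 probe 3889, r was 0.88 (rho = 0.85, n = 14), and 0.81 without these arrays. Lpl probe 3041 was lower than Scd1 on all 14 arrays, by 1.39 ± 0.27 (SD, n = 14), and lower than Scd2 on all 14, by 1.36 ± 0.23 (SD, n = 14). These differences varied less between arrays than the Lpl ratio itself, whose SD was 0.49. Within the arrays numbered 1 to 6, r with Scd1 was 0.73 and with Scd2 0.93, and within those numbered 7 to 12 it was 0.92 and 0.96 (n = 6 each). With the knockout in Cy5 it was 0.91 and 0.94, and with the knockout in Cy3 0.82 and 0.45 (n = 7 each). The other Lpl probes followed the desaturases less closely over all arrays. Probe 2357 had r = 0.36 with Scd1 and 0.57 with Scd2 (rho = 0.53 and 0.87, n = 13), and probe 20124 had r = 0.53 and 0.37 (rho = 0.63 and 0.46, n = 13). Without the 2 arrays farthest from each probe's median, among them the one where it lay above 0, these became 0.67 and 0.91 for probe 2357 and 0.68 and 0.72 for probe 20124. With Fabp4 the 3 Lpl probes had r between -0.094 and -0.017, and with Fabp5 between -0.44 and 0.16. With Lipe, r was -0.15 for probe 3041, 0.56 for probe 2357 and -0.68 for probe 20124, and without the 2 farthest arrays -0.41, 0.091 and 0.38. The second Scd2 probe had r of -0.68, -0.38 and -0.33 with them, and Lpl probe 3041 was lower than it on 9 of 11 arrays.

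**Figure D3:**
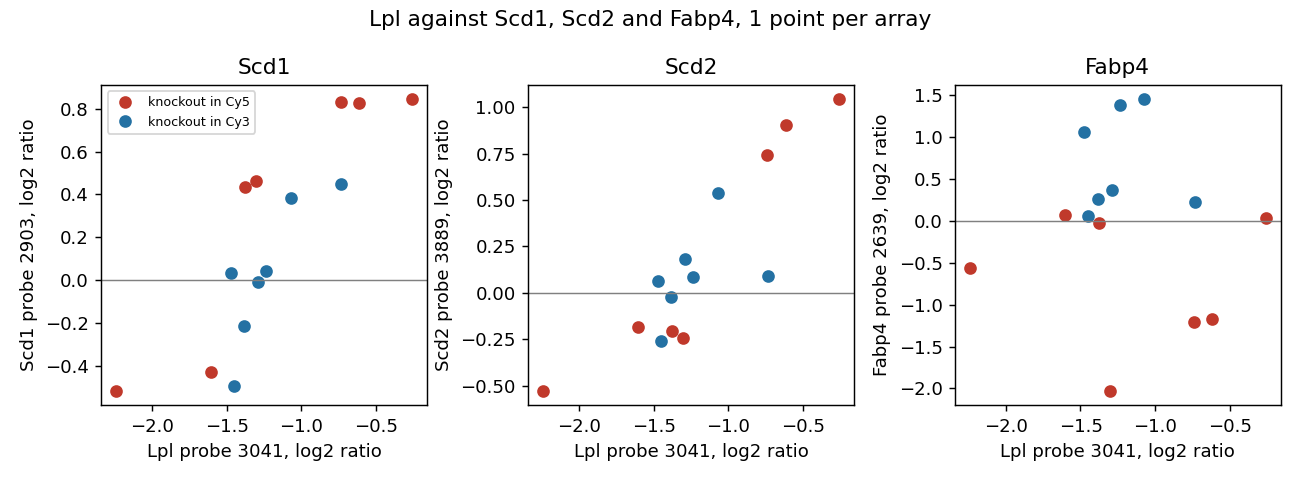
Log2 ratios of Scd1, Scd2 (probe 3889) and Fabp4 (vertical axes) against that of Lpl probe 3041 (horizontal axes), with 1 point per array. Red marks the knockout in Cy5 and blue the knockout in Cy3. Scd1 and Scd2 rise with Lpl (r of 0.85 and 0.88, n = 14) while Lpl probe 3041 stays below both on every array, and Fabp4 shows no such relation (r of -0.094, n = 14).

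Many probes shared this pattern. Among 14860 probes with at least 12 arrays in common with Lpl probe 3041, 1 in 100 had r above 0.78. Scd2 probe 3889 and Scd1 took ranks 21 and 47. The 5 named genes most like Lpl probe 3041 were Irs1 (r = 0.93), an adaptor of the insulin receptor, Btg2 (r = 0.93), an antiproliferative gene, Nmral1 (r = 0.92), a redox sensor, Tcf4 (r = 0.91), a basic helix-loop-helix factor, and Polr2j (r = 0.90), a subunit of RNA polymerase II, over 13 or 14 arrays. With the knockout in Cy3 alone, Irs1 had r = 0.95 (n = 7), while Btg2, Nmral1, Tcf4 and Polr2j had 0.43, 0.40, 0.60 and 0.25 (n = 7, and 6 for Polr2j). On the Cy5 knockout arrays all 5 had r of 0.94 or above (n = 7). The values within an orientation come from the same arrays on which these genes were chosen. High values there follow in part from that choice and are no separate support. Turning the ratios of an orientation would not change r within it, and the ranking itself was not repeated with the Cy3 arrays turned. None of these 5 genes was called, and their means of 0.10, -0.33, -0.016, -0.049 and -0.059 lie nearer to 0 than that of Lpl. Lpl probe 3041 lay below Irs1 on all 14 arrays, by 1.30 ± 0.19 (SD, n = 14). The points share arrays, and so whatever sets an array's ratios as a whole.

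The other genes of lipid handling were given by 7 lists with 161 symbols, of which 105 were tested by 153 probes. Of these probes 0 were called by limma in either direction. At an unadjusted p below 0.05, 10 were lower and 2 higher, or 6.54% and 1.31% of the probes, beside 2.76% and 2.3% of all probes. Their median of 0.019 was close to that of all probes, with 81 above 0 and 72 below.

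Genes of the lipoprotein lipase system (its carriers, inhibitors and receptors) had 0 of 21 probes called, with 4 lower and 0 higher by an unadjusted p below 0.05 and a median of -0.01. Apoe, the apolipoprotein that carries remnant particles to their receptors, stood at -0.53 ± 0.53 (SD, n = 13) and was below 0 on 11 of 13 arrays. Angptl4, a secreted inhibitor that inactivates lipoprotein lipase, stood at -0.69 ± 0.87 (SD, n = 13), also below 0 on 11 of 13. Each had an adjusted p of 0.895. Fatty acid uptake and activation genes had 0 of 14 called, with 2 lower and 0 higher by an unadjusted p below 0.05 and a median of 0.015. Their smallest p belonged to Slc27a4, a fatty acid transport protein, at -0.64 ± 0.65 (SD, n = 12), and Acsl6, an acyl-CoA synthetase, at -0.45 ± 0.71 (SD, n = 13). Of the values of this Slc27a4 probe 50% were ratios of small whole numbers, against a median of 15.4% over all probes. Further probes of Slc27a4 and Acsl6 gave 0.24 ± 1.9 (SD, n = 13) and 0.009 ± 1.3 (SD, n = 10). These spreads are wide, and whether the second probes differ from the first was not tested.

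Fatty acid synthesis and desaturation genes had 0 of 23 called, with 0 lower and 1 higher by an unadjusted p below 0.05 and a median of 0.065. Elovl4, an elongase of very long fatty acids, stood at 0.69 ± 1.35 (SD, n = 14), and Acly, which makes cytosolic acetyl-CoA, at 0.35 ± 0.58 (SD, n = 13). Triglyceride synthesis and lipid droplet genes had 0 of 26 called, with 0 lower and 1 higher and a median of 0.089. Agpat1, an acyltransferase of phosphatidic acid synthesis, stood at 0.45 ± 0.73 (SD, n = 14) in one probe and at -0.10 in another, and Bscl2, the lipid droplet protein seipin, at -0.50 ± 1.17 (SD, n = 14). Lipolysis genes had 0 of 14 called, with 1 lower and 0 higher and a median of -0.036. Prkacb, a catalytic subunit of protein kinase A, stood at -0.34 ± 0.37 (SD, n = 14) and at 0.043 in a second probe. Lipa, the lysosomal acid lipase, stood at -0.53 ± 1.08 (SD, n = 12), and its further probes gave 0.23 and -0.13.

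Transcription factors of adipocyte formation and lipid control had 0 of 45 probes called, with 2 lower and 0 higher by an unadjusted p below 0.05 and a median of -0.002. Klf5, a zinc-finger factor that acts early in adipocyte formation, stood at -0.87 ± 0.64 (SD, n = 11) and was below 0 on 10 of 11 arrays (limma, adjusted p = 0.497). The coactivator gene Ncoa1 stood at -0.85 ± 0.85 (SD, n = 11), but at -0.048 in a second probe. In its first probe 54.5% of the values were ratios of small whole numbers, against a median of 15.4% over all probes. Mature adipocyte and adipokine genes had 0 of 10 probes called, with 1 lower and 0 higher and a median of -0.12. Adipoq, which encodes the fat hormone adiponectin, stood at -0.57 ± 1.13 (SD, n = 13) and was below 0 on 9 of 13 arrays. Like Fabp4 it had opposite means by dye, at -1.28 with the knockout in Cy5 and 0.26 in Cy3 (limma dye term -0.77, p = 0.0040 unadjusted, adjusted p = 0.461). Retn, which encodes resistin, stood at -0.53 ± 1.26 (SD, n = 13) and was below 0 on 10 of 13. Both spreads exceed the means, and both had an adjusted p of 0.895.

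**Figure D4:**
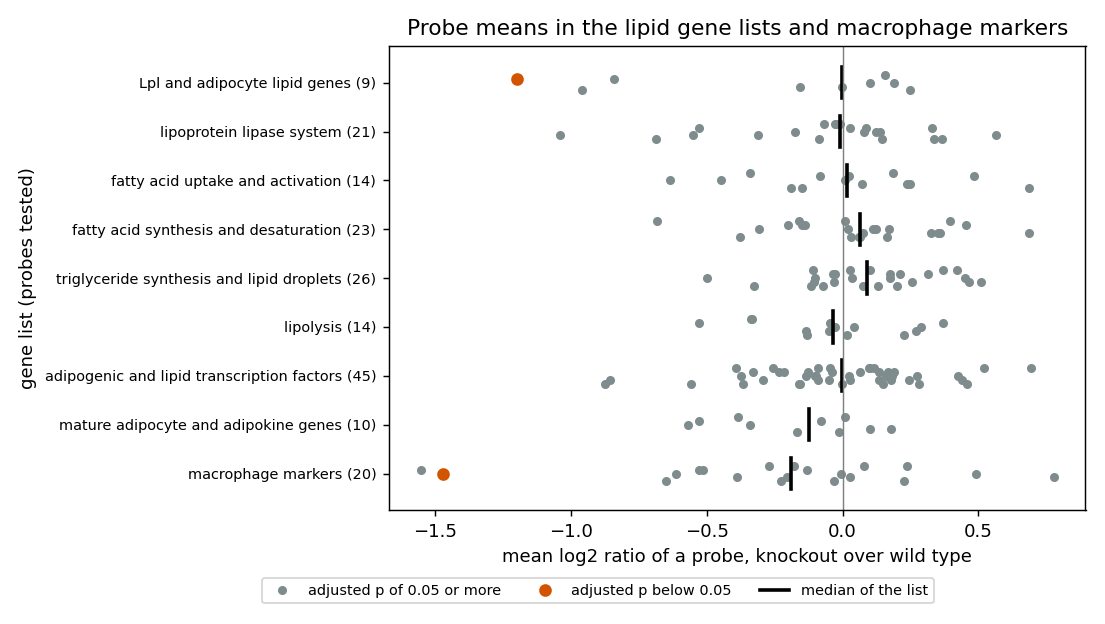
Mean log2 ratio of knockout over wild type (horizontal axis) of each tested probe in the Lpl and adipocyte lipid genes, in 7 further lipid gene lists and among macrophage markers (vertical axis, number of probes in brackets), with orange for an adjusted p below 0.05 and a black line for the median of a list. The called points are 1 Lpl probe and 1 Lyz2 probe, and the medians of the 7 lipid lists run from -0.12 to 0.089.

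Markers of macrophages, which also make lipoprotein lipase, were examined beside Lpl. Of 20 probes 1 was called lower (Lyz2, the macrophage lysozyme, at -1.47 ± 0.80, SD, n = 12), 0 were called higher, 4 were lower and 0 higher by an unadjusted p below 0.05, and the median was -0.19, with 14 below 0. Over all probes 0.0324% were called lower, and 2.76% were lower and 2.3% higher before adjustment. Another Lyz2 probe stood at -1.55 ± 1.03 (SD, n = 14) and missed the threshold (limma, adjusted p = 0.0595). In the mean over the list each probe counts alike, both Lyz2 probes included, and no mean was taken without them. This mean was below 0 on 11 of 14 arrays, from -0.96 on replicate 7 to 0.15 on replicate 6. It ran against Lpl across arrays: replicate 7, where the list was lowest, had the Lpl ratio nearest to 0 (r = -0.85, rho = -0.75, n = 14, and r = -0.75 without the 2 arrays farthest from the Lpl median). All lists were set beside Lpl in this way, and this r was the farthest from 0. The others ran from -0.41 for lipolysis to 0.31 for the members, which include Lpl. The part of macrophages in the Lpl result was not tested. Fewer cells that make Lpl and less Lpl RNA per cell cannot be told apart in these samples. Endothelial, muscle and epithelial markers had 0 of 10, 0 of 8 and 0 of 10 probes called, with 1, 1 and 1 lower and 1, 0 and 0 higher by an unadjusted p below 0.05.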

How the data were processed

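The deposited values are the authors' log2 ratios between both channels, for 20355 probes on 14 arrays. The base was read from the values: each array holds 1 repeated extreme, 16.6 log2 units (a ratio of 100000) from a frequent value taken as the 1:1 ratio. How the scans were corrected for background and normalized was not given in the sources used here; spot intensity was not used here. The labels' protocols also mention organs and a reference pool of control animals; the channel labels were followed. Extremes beyond 12 were set to missing and each array was centred on its median. limma 3.58.1 in R 4.3.3 fitted a mean and a dye term, with the model tested on simulated data. Symbols came from the platform annotation: 14030 probes have 1 symbol, 5 several and 6320 none, and 13994 of the IDs matched RefSeq (GRCm38.p6). No sequences are printed. Named genes are all member probes, the called probes of other lists, the 2 smallest p in each lipid list, the 5 genes most correlated with the called Lpl probe, and Jmjd6. The members and lists were chosen with earlier results of these data known. Alternatives covered centring, scaling, coded extremes, dye, blocks, filters and single arrays.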

Additional observations from a re-analysis of the deposited data

Results flagged for a closer look

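Among 23 sets of 4 to 7 arrays of one dye orientation examined for the member probes and the 3 untested ones, 1 held an array far from the others. Lpl probe 2357 stood at 0.98 on replicate 14, with the knockout in Cy3, and the nearest of the 7 arrays was at -0.85, a gap of 0.74 of the whole range. By its construction at a 95% level, Dixon's criterion flags about 1 in 20 such sets by chance. No cause was tested.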

How the results depend on the processing

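Lpl probe 3041 kept its direction under every alternative except turning the Cy3 arrays, which gave 0.036 (adjusted p = 0.972). Its call was lost with the knockout in Cy5 alone (mean -1.16, adjusted p = 0.819), with the knockout in Cy3 alone (-1.24, 0.473) and with robust and trended variances (-1.20, 0.548). It held in the other 9 alternatives and without any 1 array (means -1.27 to -1.12, adjusted p 0.00266 to 0.0207), also with dye and number range jointly as a random block (0.0177) and number range as a fixed block (0.0215). Turning moved probes 2357 and 20124 to 0.021 and 0.0060. Without single arrays they ran from -1.12 to -0.90 and from -0.98 to -0.79. The fixed block moved probe 2357 to -0.39, where replicate 14 alone stands for its range. The difference of probe 3041 from 20124 passed with scaling (-0.28, exact permutation, adjusted p = 0.0432) and, chosen after seeing the data, without replicates 2 and 14 (-0.28, 0.0440). Without single arrays it ran from -0.39 to -0.25. Since probe 3041 is the called Lpl probe, nothing is read from these passes. Called members numbered 0 in either dye orientation alone, with the Cy3 arrays turned or with robust and trended variances, 1 or 2 without single arrays, and 1 otherwise. The dye term called 0 members, and 1 with the Cy3 arrays turned, which exchanges mean and dye term. Over all probes the count of 6 became 0 in either orientation alone or with robust variances, 1 when turned, 11 among probes with values on all 14 arrays, and 4 to 8 without single arrays. Requiring values on all 14 arrays left no value for member probes measured on fewer. Keeping coded extremes moved Scd2 probe 5552 to -1.16. No lipid list probe was called under any of the 14 alternatives or without single arrays. Each ratio already pairs both genotypes on 1 array, and no further block by replicate number was possible because all arrays form 1 group. The number of arrays limits the precision.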
